A study of Mus musculus with 4 samples.

Results

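The 10 genes described here are Hif1a and 9 genes of glucose uptake and glycolysis (Slc2a1, Hk2, Hk3, Pfkl, Aldoa, Gapdh, Pgk1, Pkm and Ldha). They were chosen by name from the 28692 genes of a single-cell UMI table and were followed across the 4771 barcodes with at least 1000 UMIs, of 6954 in all. Each UMI (unique molecular identifier) stands for 1 captured RNA molecule, and a barcode stands for 1 droplet, mostly 1 cell. The cells came from the colon lamina propria, the connective tissue under the gut epithelium, of 4 male C57/Bl6N mice, each in a well of its own. Mice DEP 11 and DEP 13 had been gavaged with 12 µg of diesel exhaust particles (DEP) in 200 µL of phosphate-buffered saline (PBS), 5 days a week for about 6 months. PBS 2 and PBS 3 had been given PBS alone. Sorting had kept Cd11b+ cells that were also positive for Ly6C or Cd64, so the data hold no colon cells outside that gate other than those carried through it.

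Glycolysis splits glucose into pyruvate in the cytosol and yields ATP without oxygen. Slc2a1 (GLUT1) brings glucose into the cell, hexokinases (Hk2 and Hk3) and phosphofructokinase (Pfkl) trap and commit it, and Aldoa, Gapdh, Pgk1 and Pkm carry the later steps. Ldha turns pyruvate into lactate. HIF-1α, the product of Hif1a, is a transcription factor whose protein is degraded in the presence of oxygen and which switches on most of these genes when it is stable. Hif1a RNA therefore does not report the activity of the protein. Monocytes and inflammatory macrophages are known for a glycolytic metabolism, and resident macrophages for relying more on respiration. In the colon, blood monocytes carry Ly6C, encoded in part by Ly6c2, and lose it as they become resident macrophages, which make the complement component C1qa.

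Barcodes were placed by these 2 genes. A barcode with a Ly6c2 UMI was called Ly6c2+, and a barcode at or above the median of 33.1 C1qa UMIs per 10000 UMIs was called C1qa-high. This gave 1261 Ly6c2+ C1qa-low, 715 Ly6c2+ C1qa-high, 1671 Ly6c2- C1qa-high and 1124 Ly6c2- C1qa-low barcodes. A single UMI can come from free RNA, and barcodes with fewer than 500 UMIs carried 1 to 16 Ly6c2 UMIs per mouse. The Ly6c2 classes also differed in depth, with median UMIs per mouse of 7767 to 10304 in Ly6c2+ C1qa-high and 6127 to 7975 in Ly6c2- C1qa-high barcodes, and of 4770 to 6342 in Ly6c2+ C1qa-low and 3966 to 4394 in Ly6c2- C1qa-low barcodes. The part of free RNA in the classes was not tested. Per mouse, 675 to 1582 barcodes with median depths of 5329 to 7116 UMIs entered, and DEP 13 was the smallest library. The marker lists moved with the classes that Ly6c2 and C1qa had defined. The monocyte list includes Ly6c2 and the macrophage list C1qa, so part of this was set by the class rule. Levels are given in CPM, the UMIs of a gene per 1000000 UMIs of the mouse or class. Over the mice, the 10 monocyte markers summed to 4593 to 5993 CPM in Ly6c2+ C1qa-low and 588 to 926 in Ly6c2- C1qa-high barcodes, and the 11 macrophage markers to 14398 to 22059 and 54273 to 63493. Plasma cells, which also carry Ly6c2, had passed the sort. In all, 280 barcodes (5.87%) carried markers of T, B or plasma cells, and these held 10.99% to 34.6% of the UMIs of the Ly6c2+ C1qa-low class against 3.90% to 5.11% of the Ly6c2- C1qa-high class. The 7 plasma cell markers summed to 4663 to 18355 CPM in the former class and 309 to 1246 in the latter, the 6 T cell markers to 45.3 to 55.2 and 7.07 to 17.7, and the 6 B cell markers to 57.6 to 127 and 49.2 to 71.5. Fold changes of the 9 tested genes between classes are therefore given with and without them. Of the barcode sequences with at least 1000 UMIs, 12 occurred in more than 1 mouse.

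Promoter windows of 4 genes are shown because Pkm and Pgk1 were lower, Hk2 was higher and Ldha was not called between the classes. All 4 windows shown hold the same short word. Pkm and Ldha each have another annotated start, whose window lacks the word and is not shown. HIF-1 binds DNA at a core that includes the letters ACGTG, and the windows below were searched for it on both strands, so that CACGT marks the opposite strand and CACGTG counts as 2 overlapping matches. Each window is the RefSeq sequence from 250 bases before to 50 bases after an annotated start (GRCm38.p6), 5′ to 3′ on the strand of the gene, with matches in capitals.

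Pkm, chr9:59656977-59657276, plus strand: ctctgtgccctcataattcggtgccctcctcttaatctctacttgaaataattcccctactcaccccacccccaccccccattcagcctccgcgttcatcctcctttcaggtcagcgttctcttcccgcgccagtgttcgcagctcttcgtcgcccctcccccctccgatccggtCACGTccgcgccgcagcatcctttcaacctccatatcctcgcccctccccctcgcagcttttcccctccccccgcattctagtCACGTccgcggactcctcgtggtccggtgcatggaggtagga
Pgk1, chrX:106186850-106187149, plus strand: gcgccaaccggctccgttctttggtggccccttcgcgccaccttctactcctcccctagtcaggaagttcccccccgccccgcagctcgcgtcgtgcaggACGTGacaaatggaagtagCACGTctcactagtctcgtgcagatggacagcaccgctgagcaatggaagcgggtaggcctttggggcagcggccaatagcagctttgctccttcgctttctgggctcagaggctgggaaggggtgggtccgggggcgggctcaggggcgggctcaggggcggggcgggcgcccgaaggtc
Hk2, chr6:82774405-82774704, minus strand: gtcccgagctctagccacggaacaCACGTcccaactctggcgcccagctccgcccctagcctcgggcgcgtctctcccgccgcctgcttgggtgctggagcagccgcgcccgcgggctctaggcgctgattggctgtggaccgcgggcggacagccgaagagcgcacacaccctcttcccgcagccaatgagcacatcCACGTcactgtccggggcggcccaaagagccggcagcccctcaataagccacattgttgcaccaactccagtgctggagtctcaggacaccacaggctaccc
Ldha, chr7:46845554-46845853, plus strand: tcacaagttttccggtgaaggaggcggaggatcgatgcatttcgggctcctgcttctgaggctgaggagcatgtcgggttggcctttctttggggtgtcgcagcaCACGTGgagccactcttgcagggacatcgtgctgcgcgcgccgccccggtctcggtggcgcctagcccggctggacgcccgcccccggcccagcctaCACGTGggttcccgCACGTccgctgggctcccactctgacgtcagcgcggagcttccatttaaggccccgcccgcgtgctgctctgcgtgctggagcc

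The Pkm, Pgk1 and Hk2 windows hold 2 matches each and the Ldha window 5, of which 2 pairs overlap within CACGTG. All 10 genes had a window, and 9 of them held a match in at least 1 of their windows (10 of 14 windows). The word was found in 19.6% of all 32851 windows and in 31.3% of the 5596 expressed genes that had a window. Hif1a itself held 3 matches and Pfkl none. A match is a description of these letters and not a binding site. Genes that were higher, lower and not called between the classes were all among those with a match.

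Pkm, the pyruvate kinase of the last glycolytic step, showed the largest difference of the 10 genes between the classes. In Ly6c2+ C1qa-low barcodes Pkm stood at 489 and 456 CPM in the mice DEP 11 and DEP 13 and at 644 and 469 in the mice PBS 2 and PBS 3. In Ly6c2- C1qa-high barcodes it stood at 313, 263, 320 and 269 in the same order. The level was lower in the C1qa-high barcodes of 4 of 4 mice and the ranges of the classes did not overlap. The log2 fold change was −0.89 ± 0.06 (SE; adjusted p = 3.04e-10, edgeR quasi-likelihood test with the mouse as a block), and −0.95 ± 0.06 without the other cell types. Both classes that mix the markers lay between, with 288 to 368 CPM in Ly6c2+ C1qa-high and 338 to 528 in Ly6c2- C1qa-low barcodes. Thinned to 1000 UMIs per barcode, a Pkm UMI was present in 36.1% to 44.5% of Ly6c2+ C1qa-low barcodes and in 20.2% to 22.7% of Ly6c2- C1qa-high barcodes. Unthinned, these shares were 82.8% to 91.5% and 72.3% to 78.0%. The 302 to 736 barcodes per mouse with fewer than 1000 UMIs entered neither set of shares, and no cell type in the data should lack the gene.

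**Figure D1:**
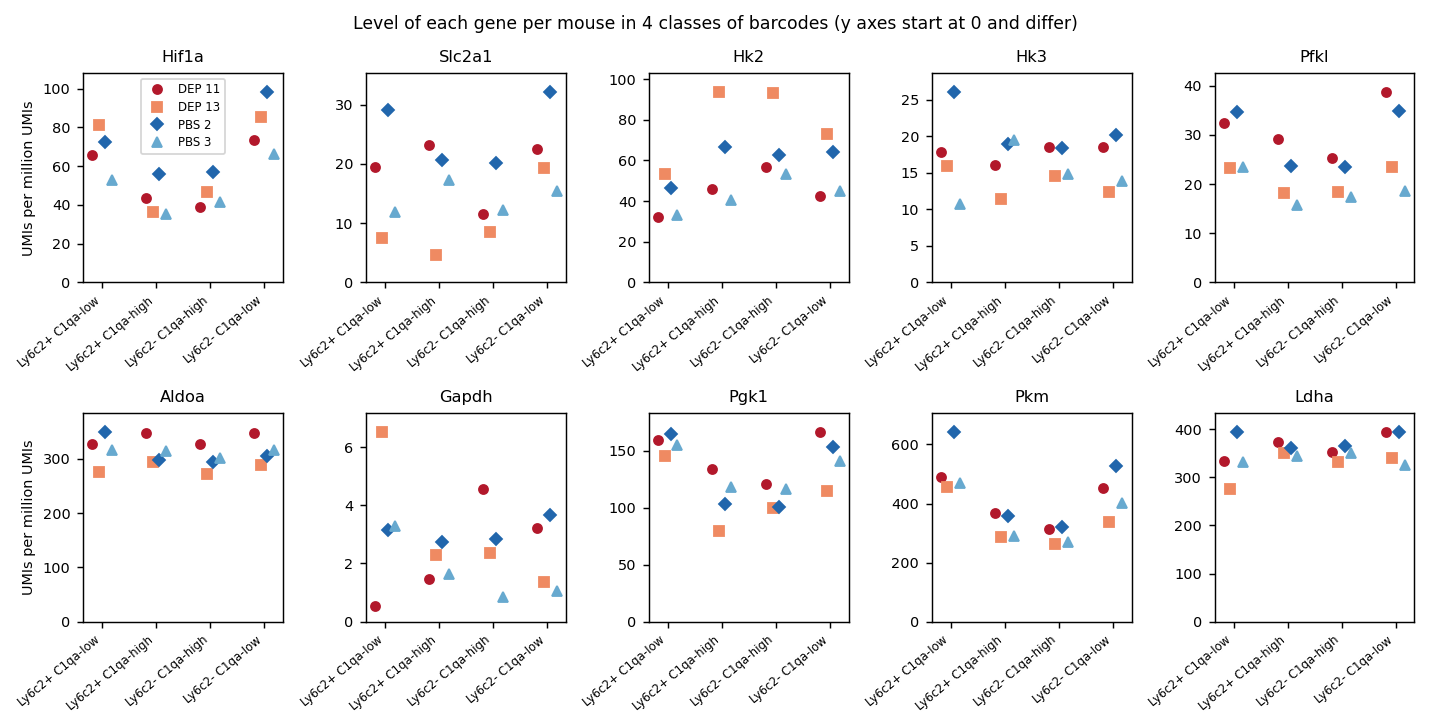
CPM (y axis, linear from 0, a separate scale for each gene) of the 10 genes in 4 classes of barcodes (x axis), with 1 point for each of the 4 mice and no error bars. Pkm and Pgk1 sit higher in Ly6c2+ C1qa-low than in Ly6c2- C1qa-high barcodes in 4 of 4 mice and Hk2 sits lower, while Gapdh never exceeds 6.54.

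Pgk1 and Pfkl moved the same way. Pgk1, the first ATP-yielding enzyme of the pathway, had 159, 146, 165 and 155 CPM in the Ly6c2+ C1qa-low barcodes of DEP 11, DEP 13, PBS 2 and PBS 3, and 121, 99.4, 100.2 and 116 in the Ly6c2- C1qa-high barcodes. The classes did not overlap and the log2 fold change was −0.59 ± 0.07 (adjusted p = 1.72e-06), and −0.64 ± 0.08 without the other cell types. Pfkl, the liver-type subunit of phosphofructokinase, which also serves leukocytes, had 32.4, 23.3, 34.7 and 23.5 CPM in the former and 25.2, 18.4, 23.5 and 17.5 in the latter. It was lower in the C1qa-high barcodes of each mouse, although the ranges overlapped across mice, and the log2 fold change was −0.50 ± 0.13 (adjusted p = 0.00407), and −0.51 ± 0.14 without the other cell types. When barcodes were thinned before they were classed, the Pfkl difference was 0.0030 (adjusted p = 0.998), and DESeq2 gave it an adjusted p of 0.0875.

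Aldoa, which splits fructose bisphosphate, had 328, 275, 351 and 317 CPM in Ly6c2+ C1qa-low barcodes and 328, 272, 294 and 301 in Ly6c2- C1qa-high barcodes. The levels of DEP 11 were nearly equal. The log2 fold change of −0.16 ± 0.06 passed the threshold (adjusted p = 0.0370) but lost it without DEP 13 (−0.16, adjusted p = 0.0754), without PBS 2 (−0.12, adjusted p = 0.191) and without PBS 3 (−0.15, adjusted p = 0.144). It was also lost with DESeq2 (adjusted p = 0.208), with classes from thinned barcodes (adjusted p = 0.0883), with no gene filter (adjusted p = 0.0541) and after thinning to 1000 UMIs, where the value was −0.035 (adjusted p = 0.833). Without the other cell types Aldoa had 350, 324, 364 and 354 CPM in the former class and 321, 274, 294 and 303 in the latter, the classes did not overlap, and the log2 fold change was −0.19 ± 0.06 (adjusted p = 0.0190).

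Hif1a followed the falling genes. Its level was 65.8, 81.2, 72.5 and 53.1 CPM in Ly6c2+ C1qa-low barcodes and 38.9, 46.6, 56.9 and 41.5 in Ly6c2- C1qa-high barcodes, lower in 4 of 4 mice. The log2 fold change was −0.60 ± 0.11 (adjusted p = 0.000101). Without T, B and plasma cell barcodes the levels were 77.1, 109.9, 75.3 and 66.3 against 39.8, 45.6, 55.4 and 41.3, the classes no longer overlapped, and the log2 fold change was −0.74 ± 0.12 (adjusted p = 2.14e-05). Over all mice Hif1a stood at 28.8 CPM in the removed plasma cell barcodes, at 24.7 in the B cell barcodes and at 85.7 in the T cell barcodes. The removed sets overlap, since 164 B cell, 70 T cell and 127 plasma cell calls make up 280 barcodes. With every barcode thinned to 1000 UMIs the fold change was −0.54 but missed the threshold (adjusted p = 0.0616). Hif1a stood at 66.4 to 98.2 CPM in the Ly6c2- C1qa-low barcodes, a range that overlapped that of the Ly6c2+ C1qa-low barcodes. Without the other cell types the means of these 2 classes were 80.6 ± 10.8 and 82.2 ± 19.1 (SD, n = 4 mice). The 7 dendritic cell markers were highest in Ly6c2- C1qa-low barcodes, summing to 89.9 to 190 CPM against 56.4 to 117 in Ly6c2+ C1qa-low barcodes, and their part in the result was not tested.

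Hk2 was the exception. This hexokinase, which binds to mitochondria and is induced in activated cells, had 32.4, 53.2, 46.5 and 32.9 CPM in Ly6c2+ C1qa-low barcodes and 56.7, 93.3, 62.8 and 53.2 in Ly6c2- C1qa-high barcodes. Each mouse was higher in its C1qa-high barcodes. The log2 fold change was 0.59 ± 0.10 (adjusted p = 7.41e-05), 0.49 ± 0.10 without the other cell types and 0.70 after thinning (adjusted p = 0.0163). The difference in direction between Hk2 and Pkm, Pgk1 or Hif1a was not itself tested. Barcodes with fewer than 500 UMIs, which can hold free RNA or damaged cells, carried Hk2 at 217 to 317 CPM, against 32.4 to 93.6 in the classes of deeper barcodes, and the part of free RNA in the class difference was not tested.

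The remaining genes were not called. Ldha stood at 333, 276, 394 and 332 CPM in Ly6c2+ C1qa-low barcodes and at 353, 332, 364 and 351 in Ly6c2- C1qa-high barcodes, with a log2 fold change of −0.01 ± 0.06 (adjusted p = 0.959), and −0.04 ± 0.06 without the other cell types. Slc2a1 ranged from 7.47 to 29.2 CPM in the former and from 8.48 to 20.1 in the latter. Its log2 fold change of −0.44 ± 0.18 missed the threshold (adjusted p = 0.0555) and passed it without the other cell types (−0.49, adjusted p = 0.0382), and with classes from thinned barcodes it was −0.15 (adjusted p = 0.664). Hk3, a hexokinase of myeloid cells, ranged from 10.7 to 26.0 and from 14.6 to 18.6 CPM (log2 fold change −0.14 ± 0.17, adjusted p = 0.566, and −0.33 ± 0.18, adjusted p = 0.148, without the other cell types). With 42 to 240 Slc2a1 UMIs and 62 to 208 Hk3 UMIs per mouse, these 2 genes had the least precise values among those tested.

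In total 5 of the 9 tested genes were lower and 1 was higher in Ly6c2- C1qa-high barcodes at an adjusted p under 0.05. Among all 7071 tested genes 21.1% were lower and 19.6% higher, 40.7% in all, and 40.1% were called without the other cell types, where 6 of the 9 were lower and 1 higher. The median log2 fold change was −0.44 over the 9 genes and 0.01 over all tested genes.

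**Figure D2:**
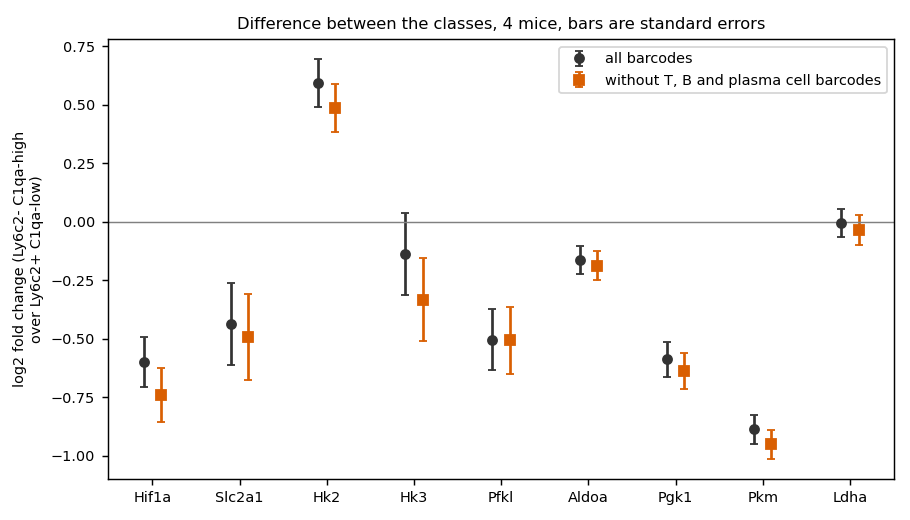
Log2 fold change of Ly6c2- C1qa-high over Ly6c2+ C1qa-low barcodes (y axis) for the 9 tested genes (x axis), fitted over 4 mice, as points with standard errors; circles use all barcodes and squares leave out T, B and plasma cell barcodes. Pkm is lowest at −0.89, Hk2 is highest at 0.59 and Ldha lies at −0.01.

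Gapdh, the classical housekeeping gene of glycolysis, was nearly absent from the table. Only 80 Gapdh UMIs were found in the 4771 barcodes, 14 to 30 per mouse or 1.66 to 3.21 CPM, and the gene was not tested because a Gapdh UMI was seen in only 0.948% to 2.31% of the barcodes of a mouse, under the 5% required. The gene lies at mm10 chromosome 6, 125161715 to 125166467. Of the 311 stretches of 90 bases within the last 400 bases of its principal transcript, Gapdh-203, 73.3% occurred letter for letter in transcripts of 57 other annotated genes. For the other 9 genes this share was 0%, and 14.2% of 7058 expressed genes had any such stretch. The 57 genes together held 11 UMIs. Per the study's methods, STAR wrote out a single alignment for a read that matches several places. The part of such reads in the low Gapdh level was not tested.

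Levels were next followed along C1qa alone, in 4 groups divided at 10.4, 33.1 and 59.6 C1qa UMIs per 10000 UMIs. The groups were of equal size over all mice together, but a group held 117 to 467 barcodes per mouse. Median UMIs per mouse were 4458 to 5506 in the lowest group and 6686 to 8991 in the highest, and the part of depth was not tested. Hif1a went from 78.1 ± 10.4 CPM (SD, n = 4 mice) in the lowest group to 68.4 ± 12.6, 49.6 ± 10.9 and 41.8 ± 6.55 in the highest, and fell at every step in 3 of 4 mice. Pkm went from 540 ± 99.3 to 424 ± 108, 309 ± 36.7 and 296 ± 41.5. It also fell at every step in 3 of 4 mice. Pgk1 went from 155 ± 7.88 to 106 ± 12.6 between the first and the last group. Hk2 went from 41.7 ± 7.72 to 53.3 ± 21.1, 66.6 ± 23.9 and 63.0 ± 13.6, higher in the last group than in the first in 4 of 4 mice but rising at every step in 1. Ldha stayed at 345 to 357 CPM on average. These are descriptions of the same barcodes as above and not a second test. Along Ly6c2, Pkm was 330 ± 39.3 in barcodes with no Ly6c2 UMI, 374 ± 31.9 at a lower and 527 ± 83.1 at a higher Ly6c2 level, divided at 2.58 Ly6c2 UMIs per 10000 UMIs. Median UMIs per mouse were 5079 to 6782, 6935 to 9513 and 4455 to 6112 in these levels. The levels thus also differed in depth, and the part of depth was not tested. Hif1a gave 55.7 ± 7.98, 53.5 ± 12.1 and 66.2 ± 8.07 in the same order, and the mice overlapped. Without T, B and plasma cell barcodes Hif1a gave 55.0 ± 6.12, 59.7 ± 16.7 and 74.2 ± 7.95, and the mice at the higher Ly6c2 level (64.9 to 84.0) lay above those with no Ly6c2 UMI (50.3 to 63.3).

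**Figure D3:**
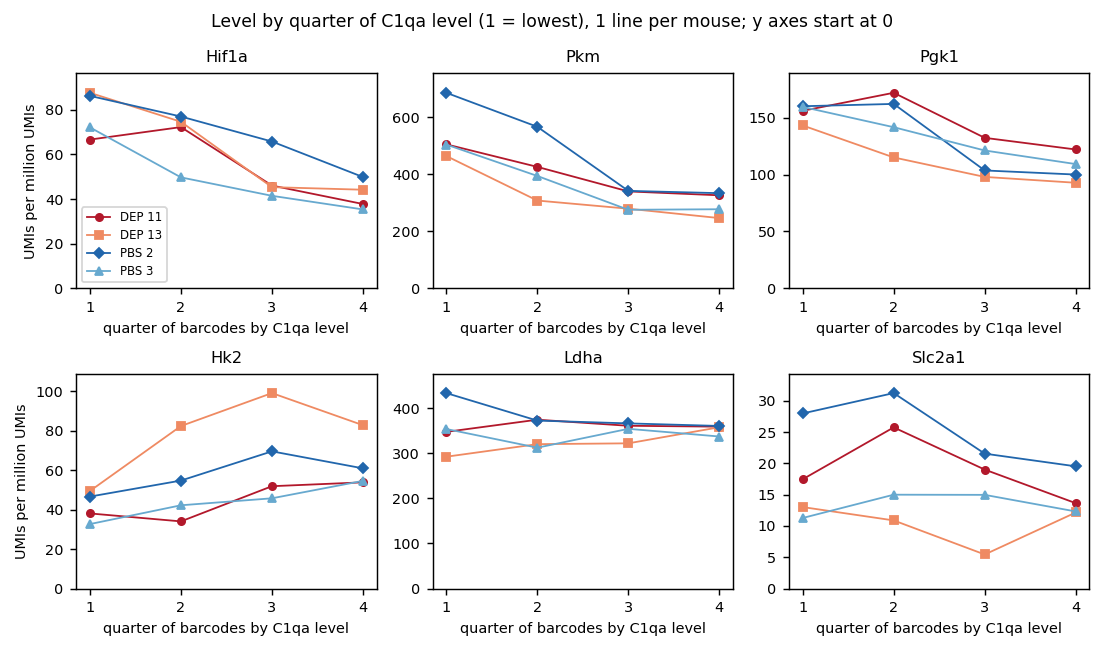
CPM (y axis, linear from 0) of 6 genes in 4 groups of barcodes ordered by C1qa level (x axis, 1 is the lowest). Each of the 4 mice has 1 line, and the groups are of equal size only over all mice together. Hif1a, Pkm and Pgk1 end lower than they start in each mouse, Hk2 ends higher, and Ldha and Slc2a1 show no shared course.

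The wider pathway was read from lists that were written by hand. Of 21 other glycolysis genes 13 were tested, and 7 were lower and 1 was higher in Ly6c2- C1qa-high barcodes, against 21.1% and 19.6% of all tested genes. Without the other cell types 9 were lower and 1 higher, against 20.9% and 19.2%. Eno1, the enolase of macrophages, had a log2 fold change of −0.92 ± 0.06 (adjusted p = 6.07e-11), the lactate exporter Slc16a3 −2.05 ± 0.18 (adjusted p = 8.96e-09), the transporter Slc2a6 −1.99 ± 0.21 and the phosphofructokinase Pfkp −1.13 ± 0.14. Pgam1, Tpi1 and Ldhb were the other genes that fell, and Aldoc, a brain-type aldolase, was the one that rose. The list had a median log2 fold change of −0.38.

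The pentose phosphate and glycogen list, whose enzymes draw sugar phosphates off glycolysis or store them, had 10 of 12 tested genes lower and 1 higher, against 21.1% and 19.6% of all tested genes, with a median of −0.50. The count was 9 of 11 lower and 1 higher without the other cell types, against 20.9% and 19.2% of all tested genes. Glycogen phosphorylase Pygl had a log2 fold change of −1.57 ± 0.15 (adjusted p = 4.01e-08). Taldo1 (−0.52), Tkt (−0.57) and Pgd (−0.49) of the pentose phosphate pathway also fell. Of the list of pyruvate entry and the tricarboxylic acid cycle, 5 of 25 tested genes were lower and none was higher. The median was −0.12. The share of lower genes was close to the 21.1% of all tested genes, of which 19.6% were higher. The lower genes included both subunits of the mitochondrial pyruvate carrier, Mpc1 (−0.58) and Mpc2 (−0.31, but 0.080 after thinning, adjusted p = 0.763). The others were Mdh2 (−0.52), citrate synthase Cs (−0.37) and Sdhb. Without the other cell types 6 of 25 were lower and 2 higher, Idh2 and Mdh1, against 20.9% and 19.2% of all tested genes.

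Of 7 tested regulators of HIF 2 were lower and none was higher, against 21.1% and 19.6% of all tested genes, with a median log2 fold change of −0.05. The lower genes were Egln2, a prolyl hydroxylase that marks HIF-α for degradation (−0.38 ± 0.14, adjusted p = 0.0417), and Rbx1, a ubiquitin ligase subunit (−0.20 ± 0.06, adjusted p = 0.0122). Egln2 was no longer called without the other cell types (adjusted p = 0.126) or without any 1 of the 4 mice. Rbx1 was no longer called without DEP 11 (adjusted p = 0.0743) or DEP 13 (adjusted p = 0.0571), and after thinning it stood at 0.17 (adjusted p = 0.266). Of 13 tested HIF targets outside glycolysis 6 were lower and 4 higher, against 21.1% and 19.6% of all tested genes, with a median of −0.01. The counts were 4 of 12 lower and 4 higher without the other cell types, against 20.9% and 19.2% of all tested genes. The carbonic anhydrase Car9 (1.58 ± 0.29), the collagen prolyl hydroxylase P4ha1 (0.60 ± 0.12) and Hmox1 were among those higher. Ndrg1 (−1.84 ± 0.24, adjusted p = 2.28e-06), Ddit4, Ero1l, Higd1a, Bnip3l and P4hb were lower. Without the other cell types Ero1l stood at 0.0022 (adjusted p = 0.997) and P4hb was no longer called (adjusted p = 0.304).

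**Figure D4:**
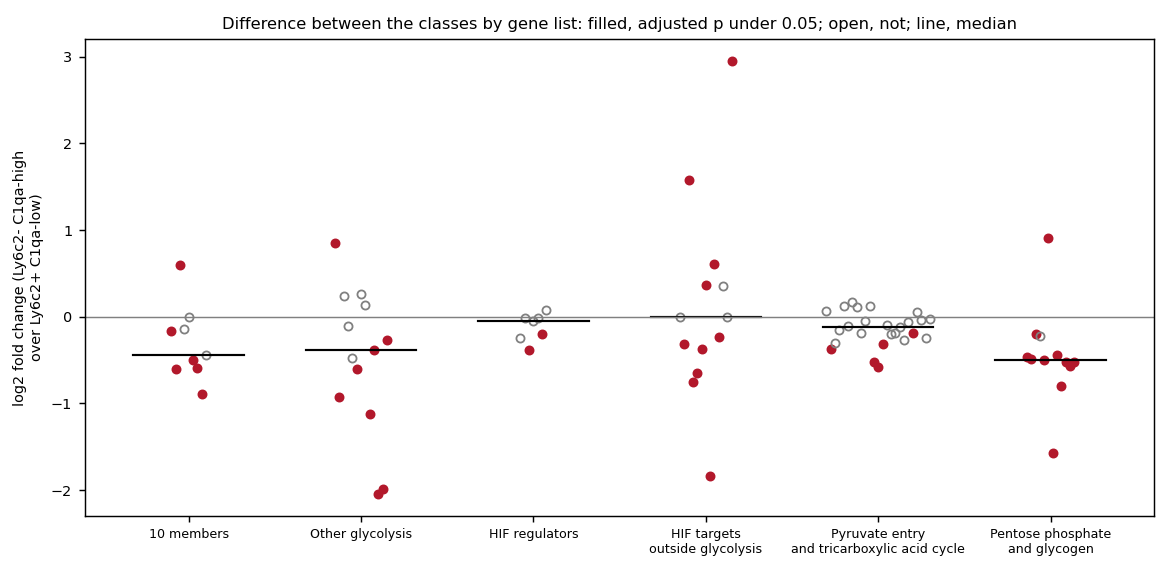
Log2 fold change of Ly6c2- C1qa-high over Ly6c2+ C1qa-low barcodes (y axis) for the tested genes of 6 lists (x axis), with 1 point per gene, filled where the adjusted p is under 0.05, and a line at the median. The medians lie at −0.44 for the 9 tested genes of those described here, −0.38 for other glycolysis, −0.05 for HIF regulators, −0.01 for other HIF targets, −0.12 for pyruvate entry and the tricarboxylic acid cycle, and −0.50 for pentose phosphate and glycogen.

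Exposure to DEP was compared over mice, first in all barcodes, then within each of the 2 end classes. None of the 9 tested genes passed an adjusted p of 0.05 with edgeR's quasi-likelihood test in any of the 3 comparisons, and none had an unadjusted p under 0.05. Over all genes 0% were called in each (of 6609, 6168 and 6879 tested), with 171 (2.59%), 168 (2.72%) and 244 genes (3.55%) at an unadjusted p under 0.05, while DESeq2 called 4, 0 and 3 genes. The 12 dissociation genes, which respond to tissue handling, summed to 9577 and 8345 CPM in the DEP mice DEP 11 and DEP 13 and to 13047 and 11585 in PBS 2 and PBS 3, and the groups were apart in both end classes too. Both DEP mice lay below both PBS mice for 15.6% of all tested genes in Ly6c2- C1qa-high barcodes. The part of the dissociation genes in the comparisons was not tested. Hif1a stood at 52.4 and 60.6 CPM in DEP 11 and DEP 13 and at 65.0 and 48.1 in PBS 2 and PBS 3 over all barcodes. The PBS mice lay on either side of the DEP mice, and the log2 fold change was 0.01 ± 0.18 (adjusted p = 0.997).

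Slc2a1, of low level, moved with single mice. In Ly6c2- C1qa-high barcodes it stood at 11.6 and 8.48 CPM in DEP 11 and DEP 13 and at 20.1 and 12.3 in PBS 2 and PBS 3, from 18 to 71 UMIs per mouse. Both DEP mice lay below both PBS mice, as in 15.6% of all tested genes there, and the log2 fold change was −0.66 ± 0.31 (adjusted p = 0.9999 with edgeR). Over all barcodes the Slc2a1 groups overlapped (17.6 and 9.64 against 23.8 and 13.8), with a log2 fold change of −0.42 ± 0.31. With each mouse left out it ranged from −0.91, without DEP 11, to −0.022, without PBS 2, and in Ly6c2- C1qa-high barcodes from −0.92, without PBS 3, to −0.30, without PBS 2.

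Hk2 differed by 0.29 ± 0.28 over all barcodes, which rested on 1 mouse. Hk2 stood at 80.1 CPM in DEP 13 but at 46.1 in DEP 11, against 59.9 and 44.1 in the PBS mice. Without DEP 13 the log2 fold change was −0.20, and without DEP 11 it was 0.67. Over all barcodes the log2 fold changes of Aldoa, Pgk1, Ldha and Pkm were −0.02 ± 0.15, −0.01 ± 0.16, −0.06 ± 0.14 and −0.12 ± 0.16. Pkm had 391 and 325 CPM after DEP and 435 and 349 after PBS, so the mice of each group differed from each other by more than the groups did.

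**Figure D5:**
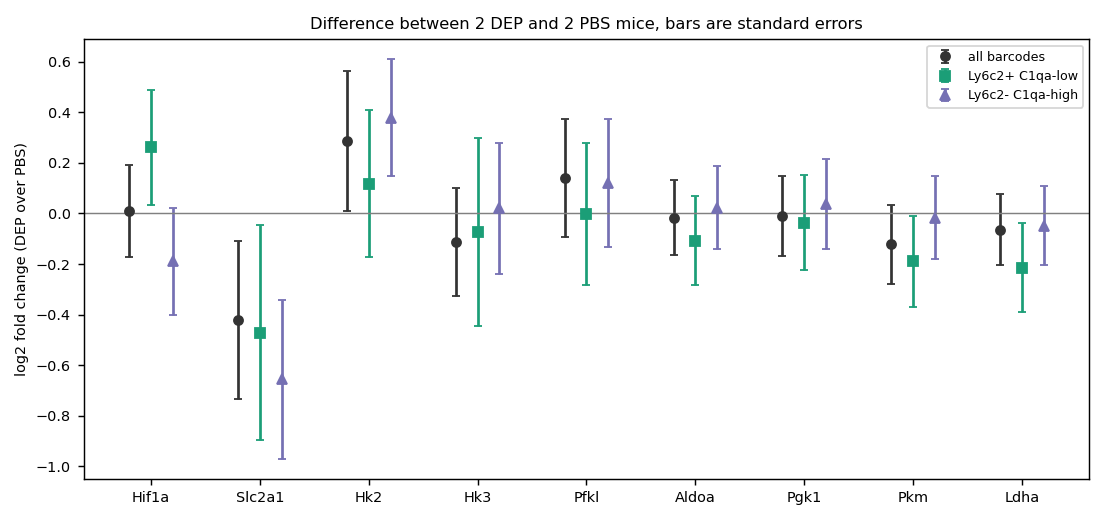
Log2 fold change of DEP over PBS mice (y axis, 2 mice in each group) for the 9 tested genes (x axis) over all barcodes (circles), Ly6c2+ C1qa-low barcodes (squares) and Ly6c2- C1qa-high barcodes (triangles), with standard errors. No gene passed the test, and Slc2a1 lies lowest, at −0.42, −0.47 and −0.66.

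An interaction term asked if exposure acted differently on the 2 end classes. Of 7071 genes 20 (0.283%) passed, and none of them was 1 of the 9 or of the pathway lists. Among the 9 genes Hif1a had the smallest p, with an interaction of −0.44 ± 0.19 on the log2 scale (adjusted p = 0.735 with edgeR), and an unadjusted p under 0.05 as for 6.28% of all genes. Its fold change for DEP was 0.26 ± 0.23 in Ly6c2+ C1qa-low and −0.19 ± 0.21 in Ly6c2- C1qa-high barcodes, and the DEP and PBS mice overlapped in both. Without T, B and plasma cell barcodes the interaction was −0.53 ± 0.20 (adjusted p = 0.582). Both DEP mice then lay above both PBS mice in Ly6c2+ C1qa-low barcodes, at 77.1 and 109.9 against 75.3 and 66.3 CPM, as in 15.2% of all tested genes there, with a log2 fold change of 0.37 ± 0.24 (adjusted p = 0.9998). Over all alternatives the Hif1a interaction ranged from −1.25, after thinning, to −0.38, without DEP 13, and was called under none.

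The genes whose level across the 16 sums of 4 mice and 4 classes was most like that of Hif1a were Tnfsf9 (Pearson r = 0.93), Cebpb (0.93), Raph1 (0.93), Relt (0.92) and Il17ra (0.91), of 7062 compared. For the mean of the 8 tested glycolysis genes they were Atp5b (0.93), Rnpep (0.92), Fos (0.92), Psme1 (0.91) and Actr3 (0.90). Hif1a itself correlated with Pkm at 0.72, with Pfkl at 0.62 and with Pgk1 at 0.57, but with Hk2 at −0.07 and with Ldha at 0.03. Pgk1 and Pkm gave the highest value among pairs of the tested genes, at 0.84, and Hk2 and Pgk1 the lowest, at −0.76. The mean of the 8 genes includes Hk2, whose class difference ran opposite to that of Pkm and Pgk1. The sums share libraries, depth and mice and include the T, B and plasma cell barcodes, so these values describe the 16 sums only.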

How the data were processed

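The authors deposited raw UMI counts, made from 10x Genomics 3' v2 libraries of sorted colon cells, and the table holds whole numbers with no scaling. The submitters' processing notes name Cell Ranger, the aligner STAR 2.6.1a and R 3.5.1, with mm10 as the build. The suffix of a barcode gave its mouse. GENCODE M21 supplied a symbol for 28416 of 28692 Ensembl identifiers.

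For each mouse, counts were added up over barcodes with at least 1000 UMIs and over each class. Depth was 4357153 to 10063287 UMIs per mouse. A gene was tested where it exceeded 1 CPM in at least 2 sums and was seen in 5% of barcodes or more, with edgeR 4.0.16 (quasi-likelihood test, TMM scaling, Benjamini-Hochberg adjustment, R 4.3.3). The mouse was the replicate, and a block between classes. T, B and plasma cell barcodes carried at least 2 of 6, 2 of 6 or 3 of 7 markers. No doublet caller was run, and an alternative left out the 5% deepest barcodes.

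The genes, gene lists and tests were chosen with earlier results of these data known. Named list genes were up to 4 per list with the smallest p among those called. Alternatives were other scaling, filters, tests (DESeq2 1.42.0), depth and class rules, and leaving out each mouse. Values of 1 list gene are not reported here.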

Additional observations from a re-analysis of the deposited data

Results flagged for a closer look

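The effect of DEP differed between the 2 end classes for 20 of 7071 genes (0.283%) at an adjusted p of 0.05, in an interaction tested with edgeR's quasi-likelihood test over 4 mice. The interaction was positive for 8 of them and negative for 12. Hif1a and the tested glycolysis genes were not among them. Igha, an immunoglobulin gene of plasma cells, had the smallest p (−0.74 on the log2 scale, adjusted p = 0.000148), and 31 genes passed without T, B and plasma cell barcodes. The part of the plasma cells was not tested.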

How the results depend on the processing

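Between the classes, Pkm, Pgk1 and Hk2 kept their direction and their call under every alternative tried, with log2 fold changes of −0.98 to −0.83, −0.65 to −0.49 and 0.49 to 0.70. Hif1a kept its direction, at −0.74 to −0.52, and lost its call after thinning. The number of the described genes called lower, 5 of 9, was 3 with DESeq2, 2 after thinning to 1000 UMIs (6 tested), 3 with classes from thinned barcodes, and 4 to 5 with each mouse left out. The cause was not tested. Over all genes the number called lower was 1495 of 7071 tested. It was 943 of 7071 with DESeq2, 471 of 2189 after thinning and 1179 of 7149 with classes from thinned barcodes. Pfkl turned to 0.0030 with classes from thinned barcodes. Ldha, close to no difference, turned to 0.075 after thinning, 0.071 with classes from thinned barcodes, and ranged from −0.037 to 0.047 with each mouse left out, and Hk3 from −0.28 to 0.089. Rbx1 turned to 0.17 and Mpc2 to 0.080 after thinning. The number of all genes called between the classes, 2881, was 1778 with DESeq2 and 938 of 2189 tested after thinning, where fewer genes were tested. Over the alternatives the genes called lower numbered 2 to 9 for other glycolysis (7), 0 to 2 for HIF regulators (2), 0 to 6 for HIF targets (6), 2 to 6 for pyruvate entry and the tricarboxylic acid cycle (5) and 3 to 10 for pentose phosphate and glycogen (10), and those called higher 0 to 1, 0, 1 to 4, 0 to 2 and 0 to 1.

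For DEP against PBS no member was called under any alternative. The number of all genes called over all barcodes, 0, was 119 with no gene filter, 4 with DESeq2, 8 with the likelihood ratio test, 1 without the 5% deepest barcodes and 8 to 35 with each mouse left out (8 without DEP 11, 9 without DEP 13, 20 without PBS 2 and 35 without PBS 3). In Ly6c2+ C1qa-low barcodes it was 100 with no gene filter, 1 with the likelihood ratio test and 0 to 18 with each mouse left out (15 without DEP 11, 18 without DEP 13, 2 without PBS 2). In Ly6c2- C1qa-high barcodes it was 60 with no gene filter, 3 with DESeq2, 8 with the likelihood ratio test, 1 without the 5% deepest barcodes, 2 with classes from thinned barcodes and 1 to 95 with each mouse left out (36 without PBS 2 and 95 without PBS 3). The lone mouse of a group was then assumed to vary like the other group. Hif1a over all barcodes turned to −0.024 with no gene filter, −0.22 after thinning and −0.15 to 0.18 with each mouse left out. With each mouse left out Hk2 ranged from −0.20 to 0.67, Aldoa from −0.12 to 0.073 and Pgk1 from −0.15 to 0.11. After thinning Pgk1 turned to 0.032 and Ldha to 0.047. Slc2a1 in Ly6c2+ C1qa-low barcodes ranged from −1.32 to 0.23 and Hif1a in Ly6c2- C1qa-high barcodes from −0.36 to 0.012 with each mouse left out.

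The interaction count of 20 was 32 with RLE scaling, 66 with no gene filter, 42 with the likelihood ratio test, 32 with at least 2000 UMIs, 31 without other cell types, 41 without the 5% deepest barcodes, 10 after thinning, 13 with classes from thinned barcodes and 29 to 51 with each mouse left out (35 without DEP 11, 33 without DEP 13, 29 without PBS 2 and 51 without PBS 3). No paired analysis was possible for DEP against PBS because the mice of the groups share no replicate numbers. Between the classes, which are paired by mouse, the fit with no replicate block called 1960 genes, and Aldoa was no longer called (adjusted p = 0.248). Gapdh, with 80 UMIs, was not tested under the gene filter.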

Other observations

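Barcodes with fewer than 500 UMIs entered no comparison. They carried Hk2 at 217 to 317 CPM over the mice, from 19 to 52 UMIs per mouse. Barcodes with at least 1000 UMIs carried Hk2 at 44.1 to 80.1 CPM. Pkm went the other way, with 153 to 279 CPM below 500 UMIs and 325 to 435 above 1000. C1qa was present in the shallow barcodes, at 1129 to 1840 CPM. Hif1a there ranged from 41.1 to 159 CPM over the mice, from only 5 to 26 UMIs per mouse. DEP and PBS mice were not compared in these barcodes.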
